A study of Mus musculus with 22 samples.

Results

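Banp was followed over 3 organs (thymus, cerebrum, cerebellum) in mice with and without the Tol transgene, as 1 gene of the 34584 in the deposited tables. It was chosen by its lower level in Tol than in WT thymus, so its thymus values are given as a description, without a test. Tol mice were heterozygous C57BL/6 animals that carried the Tol open reading frame, made of scrambled fragments of reporter and modifier genes, behind the broadly active CAG promoter at the Col1a1 locus. The line was made by cassette exchange in embryonic stem cells. WT mice were littermates without the transgene. The labels name no treatment and give no age. RNA-sequencing of frozen organ tissue gave 4 Tol and 4 WT libraries for thymus, 4 and 4 for cerebrum, and 2 Tol and 4 WT for cerebellum. Total counts ran from 14543698 to 34776973 per library. The study describes its expression data as coming from 4 Tol and 4 WT mice, and does not say which organs came from the same mouse. The main fits across organs treated all libraries as independent, so any sharing of mice between organs was not modelled. The labels used here give fewer Tol than WT samples for cerebellum, and only these were analysed.

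Banp, the BTG3-associated nuclear protein, is also known as SMAR1 and BEND1 and is a member of the BEN domain family, whose shared domain binds DNA. It sits on scaffold or matrix attachment regions, the DNA stretches that anchor chromatin loops, and was first described in thymocytes through such a region beside the T-cell receptor beta locus. The protein recruits histone deacetylases, binds p53, and occupies a CGCG-containing element in unmethylated CpG-island promoters, where it activates housekeeping genes.

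The gene (ENSMUSG00000025316) lies on the plus strand of GRCm38 chromosome 8, from 121949750 to 122029258. Its annotation holds 16 transcripts, of which 8 are protein coding, with 6632 exonic bases in all. The longest, ENSMUST00000170857, has 14 exons, 5444 bases and a coding length of 1644 bases. Its coding sequence opens in an internal exon, at chr8:121974496-121974565. These first 70 coding bases are shown to identify the transcript, with the start codon in capitals:
Banp coding start: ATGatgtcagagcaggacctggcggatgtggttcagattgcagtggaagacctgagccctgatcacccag
The reads behind Banp could be assigned with little ambiguity on its own strand. Of the 6765 distinct words of 31 bases in its transcripts, 3 (0.044%) occurred on the same strand in a transcript of another gene, Gm13608. A further 195 (2.88%) were the reverse complement of Gm27011, a non-coding RNA that starts beside the Banp promoter on the opposite strand and shares 252 exonic bases with it. Whether the counting used strand is not given in the sources used here, and Gm27011 itself was not analysed here. Gm17709, a pseudogene on the opposite strand inside a Banp intron, shared 0 exonic bases and had 12 to 64 counts per library. Gm20388, a long transcribed locus on the same strand that spans Banp, also shared 0 exonic bases. Tol thymi had 132 ± 3.85 CPM (SD, n = 4) of it and WT thymi 136 ± 6.22 CPM (SD, n = 4).

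The Tol transcript followed the genotype labels in all 22 libraries. It had 448 to 1023 counts in Tol thymus, 2240 to 3520 in Tol cerebrum and 3479 and 4628 in Tol cerebellum, against 0 to 2 in the WT libraries. The T lineage markers Cd3e, Cd4, Cd8a, Rag1, Ptcra and Lck summed to between 6035 and 9086 CPM in every thymus, and the forebrain neuron markers to between 1355 and 1784 CPM in every cerebrum. The library Tol 2 of cerebellum went against its organ label. Its 4 granule cell markers (Gabra6, Cbln3, Neurod1 and Zic1), which mark the most numerous neuron of the cerebellum, summed to 112 CPM, against 1724 to 4270 CPM in the other 5 cerebellum libraries. Its 3 Purkinje cell markers summed to 206 CPM, against 1389 to 3829 CPM. None of these 7 genes was at 0 in it. Forebrain neuron markers did not take their place, with a sum of 23.6 CPM against 264 to 580 CPM. WT 2 of cerebellum stood lower in granule cell markers (1724 CPM) and higher in oligodendrocyte markers (13256 CPM, against 3725 to 7340 CPM in the other 5). Choroid plexus markers summed to 1196 CPM in WT 2 and 4347 CPM in WT 4 of cerebellum, and to between 0.51 and 3.20 CPM in the other 4, both Tol libraries included. Because of the low granule and Purkinje cell markers, values for cerebellum are given with and without Tol 2.

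Levels are given in CPM, counts scaled to a common library size with TMM normalization factors over all 22 libraries. The Banp count behind a value was 252 to 1547 per library, so that counting alone gives a relative error of 6.30% to 2.54%. In thymus, Banp was at 21.2, 17.5, 26.8 and 16.8 CPM in Tol mice 1 to 4, and at 50.1, 45.0, 38.3 and 47.0 CPM in WT mice 1 to 4. All Tol thymi were below all WT thymi. Group levels were 20.6 ± 4.59 CPM (SD, n = 4) in Tol and 45.1 ± 5.01 CPM (SD, n = 4) in WT thymus. The log2 fold change was -1.12 (standard error 0.13), a 2.18-fold lower level in Tol thymus. These are the values on which the gene was chosen. Of the 16248 genes tested in thymus, 0.0985% had an edgeR adjusted p under 0.05, and 10.6% had Tol and WT libraries that did not overlap in either direction.

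**Figure D1:**
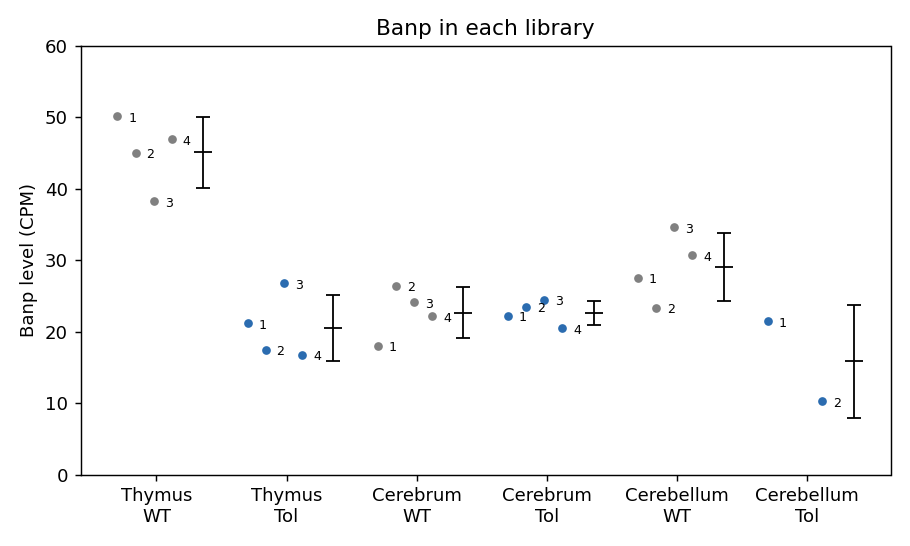
Banp level in CPM in each of the 22 libraries, by organ and genotype. Blue points are Tol and grey points WT libraries, labelled by replicate number, and the black bar beside each group is its mean with SD. The 4 WT thymi, at 38.3 to 50.1 CPM, lie above every other library, and Tol 2 of cerebellum, at 10.3 CPM, is the lowest.

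With each library left out in turn, the log2 fold change in thymus lay between -1.28 and -1.04, again as a description of the values that chose the gene. Across the 16199 thymus genes with a known transcript length, fold changes fell with length (Spearman rho of -0.38 across genes, which are not independent replicates), and the Banp transcript is longer than 82.5% of them. With the trend on length and GC content removed, Banp had a log2 fold change of -1.02. By mean log2(CPM + 1), all 14 marker lists of other cell types and of the T lineage overlapped between Tol and WT thymus. By summed CPM the astrocyte list did not, as the Tol thymi had 23.0 to 29.0 CPM and the WT thymi 29.7 to 34.6 CPM. The sum of the T lineage markers ran from 6035 to 7747 CPM among Tol thymi, and from 7618 to 9086 CPM among WT thymi. The part of either list in the Banp result was not tested. In bulk tissue, fewer cells with Banp RNA and less Banp RNA per cell cannot be told apart.

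In cerebrum, Banp was level between the genotypes. It was at 22.2, 23.5, 24.4 and 20.5 CPM in Tol mice 1 to 4, and at 18.0, 26.4, 24.1 and 22.2 CPM in WT mice 1 to 4. The Tol libraries lay wholly inside the WT range. Group levels were 22.7 ± 1.71 CPM (SD, n = 4) and 22.7 ± 3.57 CPM (SD, n = 4). The log2 fold change was 0.00 (standard error 0.12, edgeR adjusted p = 0.996), with a 95% interval from -0.26 to 0.26, that is from 0.837-fold to 1.20-fold. A two-sided exact permutation test on log2(CPM + 1) gave p = 0.914, where the smallest p that 4 against 4 allow is 0.0286. The edgeR test called 0% of the 15596 cerebrum genes at an adjusted p under 0.05, with 1506 at an unadjusted p under 0.05, and DESeq2 called 184 genes, without Banp.

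The effects in thymus and cerebrum differed by 1.12 on the log2 scale (standard error 0.20) in a single model of both organs. As the thymus contrast chose the gene, this is a description. The Tol transcript itself was lower in Tol thymus, at 22.3 ± 2.94 CPM (SD, n = 4), than in Tol cerebrum, at 165 ± 11.7 CPM (SD, n = 4). Tol cerebellum, at 194 CPM in Tol 1 and 142 CPM in Tol 2, was near cerebrum in this transcript. Whether the transgene level bears on Banp was not tested.

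In cerebellum, Banp was at 21.5 CPM in Tol 1 and 10.3 CPM in Tol 2. The WT libraries 1 to 4 were at 27.5, 23.3, 34.6 and 30.7 CPM. Both Tol libraries were below the lowest WT library, a separation that 10.5% of the 16662 cerebellum genes tested showed in either direction. Choroid plexus markers were high in WT 2 and WT 4, and low in WT 1, WT 3 and both Tol libraries. The part of choroid plexus content in the Banp values was not tested. The log2 fold change was -0.87 (standard error 0.31, 95% interval -1.63 to -0.11), with an unadjusted p of 0.0309 and an edgeR adjusted p of 0.957. In the two-sided exact permutation test p was 0.0667, the smallest that 2 against 4 allow. At an edgeR adjusted p under 0.05, 0% of the genes were called, with 527 at an unadjusted p under 0.05, and DESeq2 called 10 genes, without Banp.

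The size of the cerebellum difference depended on which Tol library was kept. Without Tol 2, the library whose granule and Purkinje cell markers were low, the log2 fold change was -0.46 (standard error 0.23, edgeR adjusted p = 0.979). Tol 1, at 21.5 CPM, was still below the lowest WT library, and 41.5% of the genes tested had Tol 1 outside the WT range in one direction or the other. Without Tol 1, it was -1.47 (standard error 0.26, edgeR adjusted p = 0.0875). With either library left out, the remaining one is assumed to vary like the WT group.

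Banp and the granule cell markers were read side by side in the 6 cerebellum libraries. Tol 2, lowest in granule cell markers at a mean of 4.47 on the scale of log2(CPM + 1), was lowest in Banp. WT 2 had the next lowest marker level, 8.58, and the lowest Banp of the WT group, 23.3 CPM. Tol 1 had the highest marker level, 9.84, with Banp at 21.5 CPM, below every WT library. The part of granule cell content in the Banp values was not tested.

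**Figure D2:**
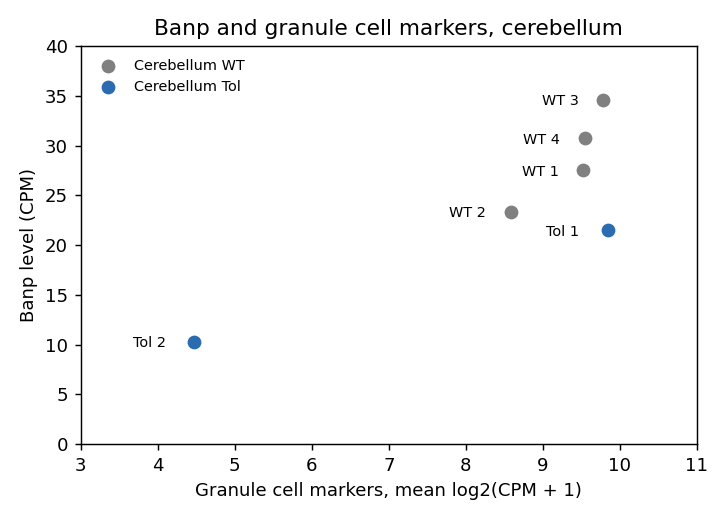
Banp level in CPM against the mean log2(CPM + 1) of 4 granule cell markers in the 6 cerebellum libraries. Each point is 1 library, blue for Tol and grey for WT. Tol 2 sits alone at a marker level of 4.47 and 10.3 CPM, while Tol 1 has the highest marker level, 9.84, and 21.5 CPM.

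Whether the Tol effect differed between cerebellum and cerebrum was tested in a model of both organs. The difference of the effects was -0.85 on the log2 scale (standard error 0.31, 95% interval -1.53 to -0.18), with an unadjusted p of 0.0171 and an edgeR adjusted p of 0.811. The test called 0% of the 17130 genes at an adjusted p under 0.05, with 1042 at an unadjusted p under 0.05, and DESeq2 called 7, without Banp. Without cerebellum Tol 2 the difference was -0.43, and without cerebellum Tol 1 it was -1.46. Each of these fits rests on 1 Tol cerebellum library, so only the effect size is given. No alternative that kept both Tol cerebellum libraries gave Banp an adjusted p under 0.05.

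**Figure D3:**
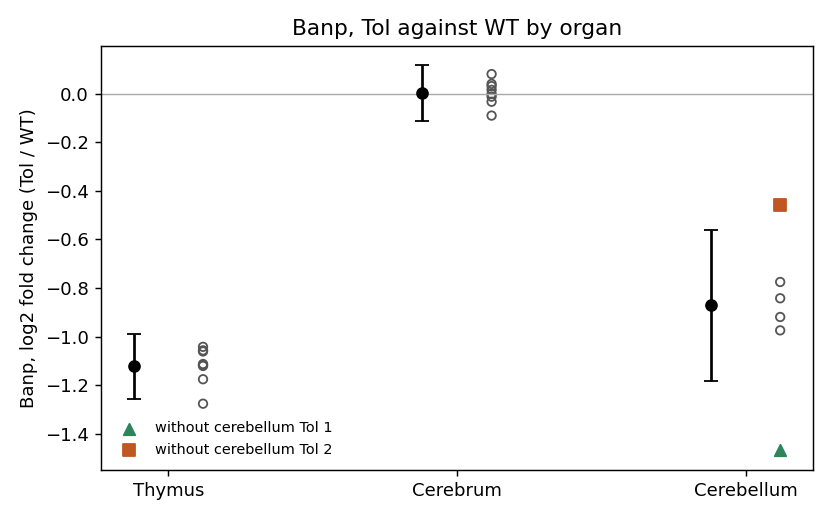
Log2 fold change of Banp, Tol over WT, by organ. Filled points are the estimates with their standard errors, open points the estimates with 1 library left out, and the square and triangle mark the cerebellum without Tol 2 (-0.46) and without Tol 1 (-1.47). The cerebrum estimates lie around 0 and the thymus estimates between -1.28 and -1.04.

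Among the WT organs, Banp was highest in thymus and lowest in cerebrum. The order of the group levels was WT thymus (45.1 ± 5.01 CPM, SD, n = 4), WT cerebellum (29.0 ± 4.79 CPM, SD, n = 4), cerebrum of both genotypes (22.7 CPM), Tol thymus (20.6 CPM) and Tol cerebellum (15.9 ± 7.90 CPM, SD, n = 2, or 21.5 CPM without Tol 2). WT thymus was apart from its neighbour WT cerebellum, with no overlap between 38.3 to 50.1 and 23.3 to 34.6 CPM. The neighbouring groups below it overlapped, and Tol thymus, at 16.8 to 26.8 CPM, overlapped with cerebrum. Without cerebellum Tol 2, the lowest brain library was WT 1 of cerebrum at 18.0 CPM, and Tol thymi 2 and 4, at 17.5 and 16.8 CPM, lay below it. Per kilobase of exons, Banp in WT thymus was above 74.4% of the genes with any count there. That share was 63.1% in WT cerebellum and 58.6% in WT cerebrum, and 63.5% in Tol thymus.

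WT cerebellum against WT cerebrum compared libraries that the choice of the gene did not use. In cerebellum, the log2 level was higher by 0.35 (standard error 0.15, 95% interval 0.01 to 0.68), or 1.27-fold, with an edgeR adjusted p of 0.0785. The groups overlapped, and the two-sided exact permutation test gave p = 0.0857. In this comparison 49.8% of the 15877 genes tested had an edgeR adjusted p under 0.05. With 1 library left out at a time, the log2 fold change was 0.24 to 0.42. Without cerebellum WT 2, low in granule cell markers, it was 0.42, with an edgeR adjusted p of 0.0383. In that fit 8484 of 15993 genes had an adjusted p under 0.05. Leaving out any other single library gave Banp an edgeR adjusted p of 0.0594 to 0.236.

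The level of WT thymus over the brain is a description, since the WT thymi took part in choosing the gene. On the log2 scale it was 1.02 (standard error 0.12) over WT cerebrum and 0.68 (standard error 0.12) over WT cerebellum. Non-overlapping libraries were common between these organs, in 83.5% of 16851 genes for cerebrum and 80.6% of 17309 genes for cerebellum. The size of the difference depended on the scaling. With the trend on transcript length and GC content removed it was 1.78 over cerebrum and 1.37 over cerebellum.

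The BEN domain family list held 9 genes, of which 8 were in the tables, Bend2 being the exception. Besides Banp these are Nacc1 and Nacc2, transcriptional corepressors with a BTB domain, Bend3, a repressor bound to heterochromatin and CpG-island promoters, Bend6, a corepressor of Notch signalling, and the less well characterised Bend4, Bend5 and Bend7. Per kilobase of exons, Nacc1 had a level of 32.9 ± 1.05 CPM per kb (SD, n = 4) in WT thymus, and Banp, next in the family there, 6.80 ± 0.76 CPM per kb (SD, n = 4). Bend5 followed at 3.46 ± 0.35 and Bend3 at 2.31 ± 0.32 CPM per kb (SD, n = 4). In the brain the order was another. Bend6 was at 45.4 ± 8.63 CPM per kb (SD, n = 4) in WT cerebrum and 67.3 ± 7.17 in WT cerebellum, against 0.41 ± 0.05 in WT thymus. Nacc2 had 1.47 ± 0.11 CPM per kb in WT thymus, 19.5 ± 2.95 in WT cerebrum and 41.3 ± 7.06 in WT cerebellum. Banp, at 3.42 ± 0.54 in WT cerebrum and 4.38 ± 0.72 in WT cerebellum, lay below Nacc1, Nacc2 and Bend6 in both brain organs. In WT cerebrum it lay beside Bend5, at 3.58 ± 0.39 CPM per kb, with overlapping libraries.

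**Figure D4:**
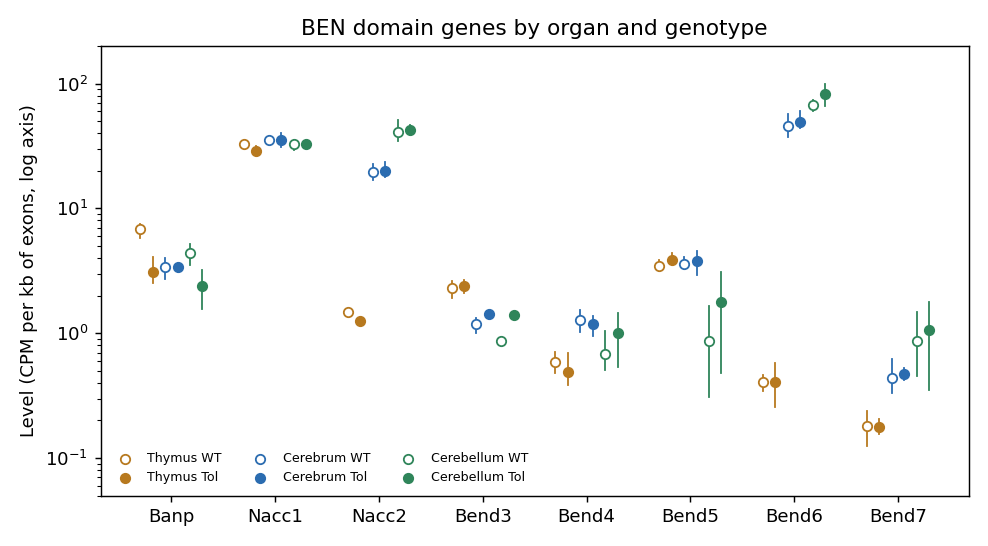
Levels of the 8 BEN domain genes in CPM per kb of exons, on a log axis, by organ (colour) and genotype (open points WT, filled points Tol). Points are group means and lines run from the lowest to the highest library. Nacc2 and Bend6 differ most between thymus and brain, and for Banp the open thymus point, 6.80, is the highest of its 6.

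Of the 7 other BEN domain genes tested in thymus, 0 passed an edgeR adjusted p under 0.05, and their median log2 fold change was -0.03, beside 0.01 over all genes tested. At an unadjusted p under 0.05, 2 of the 7 were lower in Tol thymus, where 24.4% of all genes had such a p. In thymus, Nacc1 had a level of 124 ± 8.77 CPM (SD, n = 4) in Tol mice and of 141 ± 4.51 CPM (SD, n = 4) in WT mice (log2 fold change -0.18, edgeR adjusted p = 0.120). The value for Nacc2 was -0.23 (edgeR adjusted p = 0.139). By DESeq2, which called 9.68% of 13094 genes in thymus, Nacc1 was the 1 member of the 5 tested that passed (adjusted p = 0.0413). In cerebrum 0 of 7 passed with edgeR, 1 had p under 0.05 before adjustment (9.66% of all genes did), and 0 of 7 passed with DESeq2. The gene with the unadjusted p was Bend3, at 0.27 on the log2 scale (edgeR adjusted p = 0.466).

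Bend3 was also higher in both Tol cerebella, at 9.39 and 9.55 CPM, than in the 4 WT cerebella, at 5.48 to 6.20 CPM. Of the 16662 cerebellum genes tested, 10.5% had Tol and WT libraries that did not overlap in either direction. The log2 fold change of Bend3 was 0.69 (standard error 0.14, edgeR adjusted p = 0.957), and 0.65 without Tol 2. With edgeR 0 of the 7 genes passed in cerebellum and 1 had p under 0.05 before adjustment (3.16% of all genes did), and with DESeq2, which called 0.0728% of 13741 genes, 0 of 7 passed. The median of the 7 log2 fold changes was 0.34 with Tol 2 and -0.12 without it, beside 0.01 and -0.02 over all genes tested.

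The partners known for Banp and for matrix attachment regions were read next, as a list of 11 genes, among them Btg3, Trp53, Mdm2, Hdac1, Hdac2, Sin3a, Cux1, Satb1, Safb and Hnrnpu. With edgeR all 11 were tested in each organ, and 0 passed an adjusted p under 0.05 in any of the 3 with either edgeR or DESeq2. At an unadjusted p under 0.05 there were 0 in thymus and 0 in cerebellum, where the shares of all genes were 24.4% and 3.16%. The medians of the log2 fold changes were -0.03 in thymus, 0.00 in cerebrum and 0.00 in cerebellum. Btg3, an antiproliferative protein that gave Banp its name, had 7.87 ± 1.71 CPM (SD, n = 4) in Tol mice and 6.63 ± 1.20 CPM (SD, n = 4) in WT thymus, with overlapping libraries (edgeR adjusted p = 0.382). Hdac1, the histone deacetylase recruited by Banp, was at 205 ± 6.71 and 195 ± 11.2 CPM (SD, n = 4 each, edgeR adjusted p = 0.390). Without cerebellum Tol 2, 1 of the 11 had p under 0.05 before adjustment in cerebellum, beside 2.06% of all genes.

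The 11 other factors of CpG-rich promoters were Zbtb33, Nrf1, Gabpa, Yy1, Sp1, Sp3, Elf1, Zfx, Hcfc1, Thap11 and E2f1. In thymus 9 of the 11 were lower in Tol mice, where 48.6% of all genes were, and 0 passed an edgeR adjusted p under 0.05. Zbtb33 (Kaiso), which like Banp reads CGCG elements, was at 88.2 ± 4.48 CPM (SD, n = 4) in WT and 73.5 ± 7.86 CPM (SD, n = 4) in Tol thymus. With edgeR it did not pass (log2 fold change -0.25, adjusted p = 0.0862). DESeq2, which called 9.68% of 13094 genes in thymus, called 1 of the 11. This was Zbtb33 (log2 fold change -0.26, DESeq2 adjusted p = 0.0202). Sp1, at -0.22, and E2f1, at 0.27, had edgeR adjusted p values of 0.143 and 0.193. In cerebrum 3 of 11 were lower in Tol mice and in cerebellum 10 of 11, with 0 at an unadjusted p under 0.05 in either organ and 0 by DESeq2. Without cerebellum Tol 2, 3 of 11 were lower.

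Since Banp binds p53, 12 p53 target genes were read as well (Cdkn1a, Mdm2, Bax, Ccng1, Phlda3, Eda2r, Trp53inp1, Sesn2, Zmat3, Pmaip1, Bbc3 and Perp). With edgeR 0 passed an adjusted p under 0.05 in any organ, with DESeq2 1 passed in cerebrum and 0 in the other organs, and 2 of 12, 1 of 11 and 1 of 12 had p under 0.05 before adjustment in thymus, cerebrum and cerebellum. These are shares of 16.7%, 9.09% and 8.33%, beside 24.4%, 9.66% and 3.16% of all genes. Each of these genes was lower in Tol mice. In thymus they were Zmat3, an RNA-binding zinc finger protein, with -0.25 on the log2 scale (edgeR adjusted p = 0.134), and Eda2r, a death receptor of the TNF family, with -0.80 (edgeR adjusted p = 0.142). In both brain organs the gene was Cdkn1a, the cell cycle inhibitor p21. Cerebrum levels were 19.3 ± 1.41 CPM (SD, n = 4) in Tol mice and 34.8 ± 9.90 CPM (SD, n = 4) in WT mice. All Tol libraries, at most 20.2 CPM, were below all WT libraries, at least 27.8 CPM. The share of all cerebrum genes that separate in this way was not counted. The log2 fold change of Cdkn1a was -0.84. Its adjusted p was 0.204 with edgeR and 0.00145 with DESeq2, which called 1.26% of 14657 genes in cerebrum. In cerebellum Cdkn1a was at 19.2 CPM in Tol 1 and 6.61 CPM in Tol 2, against 29.6 to 34.2 CPM in WT mice. Such a lack of overlap, in either direction, was seen in 10.5% of the cerebellum genes tested. The log2 fold change of Cdkn1a in cerebellum was -1.31 (edgeR adjusted p = 0.957), and -0.75 without Tol 2. Any relation between Banp and Cdkn1a was not tested.

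Genes whose promoter holds the letters CTCGCGAG, the centre of the element that Banp binds, were taken from RefSeq promoter windows (GRCm38.p6, from 250 bases before to 50 after each start). The letters read the same on both strands and contain the shorter core TCGCGA. Of 32851 windows, 302 (0.919%) held them, and 2.50% held the shorter core. The windows with the full letters belonged to 280 genes, 239 of which were in the tables. The Banp promoter itself has no entry, and of the other BEN domain genes the 8 windows of Bend3, Bend4, Bend5, Bend6 and Nacc2 held neither. A match says only that the letters are there. The stretch around the letters, in capitals, is shown for the 7 genes of the list whose values are given below, 4 for thymus, 2 for cerebrum and 1 for cerebellum:
Micu2 (chr14:57999296-57999325, minus strand): ggtgatgagctCTCGCGAGagcccaactct
Zfand4 (chr6:116264121-116264150, plus strand): aggccccgcccCTCGCGAGctgattggagg
Adam10 (chr9:70678879-70678908, plus strand): aggggtgcggcCTCGCGAGtgtattgggtg
Mau2 (chr8:70042753-70042782, minus strand): gcgtagcagttCTCGCGAGaattgcgggtc
Tiparp (chr3:65528197-65528218, plus strand): ccgCTCGCGAGcggacactccc
Herc1 (chr9:66350391-66350420, plus strand): gcgcttctgatCTCGCGAGagttccctcat
Chuk (chr19:44107464-44107493, minus strand): agtgacgcagtCTCGCGAGacggaggactc

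In Tol thymus, where Banp was low, these genes lay on both sides of WT. Among 217 tested, 105 (48.4%) had a lower level in Tol than in WT thymus, beside 48.6% of all genes, and the median log2 fold change was 0.00, beside 0.01. With edgeR 0 passed an adjusted p under 0.05, and 29.5% had p under 0.05 before adjustment, beside 24.4% of all genes. With DESeq2, 24 of the 208 tested passed, 16 higher and 8 lower in Tol thymus, a share of 11.5% beside 9.68% of all genes. Without Tol 1 of thymus, edgeR called 54 of 217 (24.9%), 29 higher and 25 lower, beside 18.2% of all genes. Micu2, a regulator of mitochondrial calcium uptake, had the lowest p, with 56.1 ± 4.34 CPM (SD, n = 4) in Tol mice and 44.1 ± 1.74 CPM (SD, n = 4) in WT mice (log2 fold change 0.36, edgeR adjusted p = 0.0607). Zfand4, an AN1-type zinc finger protein, stood at 0.79 on the same scale (edgeR adjusted p = 0.0710). Adam10, the protease that releases Notch and amyloid precursor ectodomains, was at 152 ± 15.5 and 187 ± 6.23 CPM (SD, n = 4 each, log2 fold change -0.30, edgeR adjusted p = 0.0805), and for the cohesin loader Mau2 the fold change was -0.28 on the log2 scale (edgeR adjusted p = 0.0834).

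In cerebrum, where Banp was level, 97 of the 219 genes with the letters (44.3%) were lower in Tol mice, beside 51.4% of all genes, and the median log2 fold change was 0.02, beside 0.00. With edgeR 0 passed, and 10.5% had p under 0.05 before adjustment, beside 9.66% of all genes. DESeq2 called 2 of 217 (0.922%), beside 1.26% of all genes. These were Tiparp, a mono-ADP-ribosyltransferase induced by the dioxin receptor, and Herc1, a giant ubiquitin ligase. Tiparp had 14.6 ± 1.98 CPM (SD, n = 4) in Tol mice and 29.9 ± 7.08 CPM (SD, n = 4) in WT mice (log2 fold change -1.03, adjusted p = 0.157 with edgeR and 3.1e-05 with DESeq2). For Herc1 it was 0.35 (adjusted p = 0.269 with edgeR and 0.0370 with DESeq2). In cerebellum 110 of 225 (48.9%) were lower in Tol mice, beside 48.2% of all genes, with a median log2 fold change of 0.01, or 0.03 without Tol 2. There 0 passed with edgeR or DESeq2, and 5 (2.22%) had p under 0.05 before adjustment, beside 3.16% of all genes. Among them was Chuk, which encodes the kinase IKK alpha. It was at 34.1 and 33.9 CPM in the Tol libraries and at 41.3 to 49.8 CPM in WT cerebellum. Such a lack of overlap, in either direction, was seen in 10.5% of the cerebellum genes tested. The log2 fold change of Chuk was -0.41 (edgeR adjusted p = 0.957), and -0.44 without Tol 2.

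Genes with a pattern most like that of Banp were ranked by Pearson r on log2(CPM + 1), among 12624 other genes with a mean of at least 1 CPM in every organ. The points are libraries that share organ, genotype and depth, so r is a description. Over all 22 libraries the highest 4 were Prdm15 (0.87), a zinc finger transcription factor of the PRDM family, Ddi2 (0.84), a protease that activates the proteasome regulator Nfe2l1, Arih1 (0.84), a ubiquitin ligase, and Gtf2i (0.83), the transcription factor TFII-I. After subtraction of the organ mean the highest 5 were Prdm15 (0.93), Ctnnd1 (0.91), which encodes p120 catenin, Txlna (0.90), a syntaxin-binding protein, Fbrs (0.90), a Polycomb-associated factor, and Pag1 (0.87), the membrane anchor of the kinase Csk. Of these 8 genes, 7 had RefSeq promoter windows, none of which held CTCGCGAG. Without cerebellum Tol 2, Prdm15 had an r of 0.82 over the other 21 libraries. It was then at rank 3, behind Gtf2i (0.85) and Arih1 (0.85). After subtraction of the organ mean Prdm15 kept rank 1, with an r of 0.91. Ctnnd1 and Fbrs were at ranks 3 and 4 there, and Txlna and Pag1 at ranks 8 and 9.

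Prdm15 had smaller differences than Banp in thymus and cerebellum. It was at 30.3, 21.7, 31.4 and 20.8 CPM in Tol thymus 1 to 4, and at 40.6, 37.6, 37.4 and 41.2 CPM in WT thymus 1 to 4. Tol thymus 1 and 3 were the highest Tol thymi for both genes. In cerebrum its level was 21.6 ± 1.98 CPM (SD, n = 4) in Tol mice and 22.2 ± 1.76 CPM (SD, n = 4) in WT mice. In cerebellum it was at 21.0 CPM in Tol 1 and 12.9 CPM in Tol 2, against 18.6 to 26.0 CPM in WT mice, so that Tol 1 lay inside the WT range. The log2 fold changes of Prdm15 were -0.58 (standard error 0.12) in thymus, -0.04 (edgeR adjusted p = 0.925) in cerebrum and -0.40 (edgeR adjusted p = 0.957) in cerebellum. The other 7 genes had log2 fold changes between -0.38, for Pag1, and -0.22, for Ddi2, in thymus, all nearer 0 than that of Banp. Banp was chosen by its thymus difference, and these genes by their likeness to Banp over the same libraries. Their shared direction and their smaller size are therefore a description and no separate result.

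**Figure D5:**
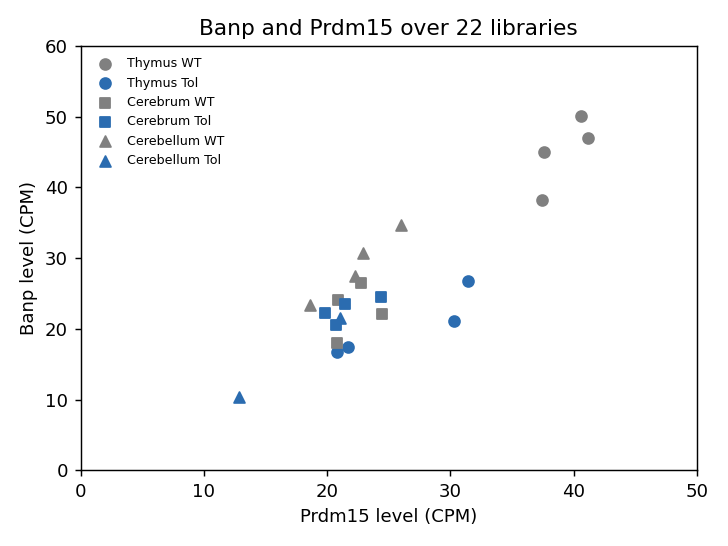
Banp against Prdm15 level, both in CPM, in the 22 libraries. Circles are thymus, squares cerebrum and triangles cerebellum, blue for Tol and grey for WT. The 4 WT thymi lie apart at the upper right, at 37.4 to 41.2 CPM of Prdm15, and cerebellum Tol 2 is lowest on both axes.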

How the data were processed

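The authors extracted RNA from frozen organs, made poly(A) libraries with a stranded kit, sequenced single ends and ran Salmon 0.14.1 against Ensembl transcripts of GRCm38 plus the Tol transcript. The deposited values are expected counts (estimated counts) per gene, stored as whole numbers and not normalized, in 3 tables with 22 libraries. The transcriptome release and the summing to genes are not given in the sources used here. The MRT columns were taken as Tol, and 0 columns were left unused.

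Genes kept by filterByExpr were fitted per organ with edgeR 4.0.16 (R 4.3.3) by quasi-likelihood, with TMM factors. Benjamini-Hochberg adjustment was over all genes tested. The Tol transcript was part of the fits and of the adjustment, and was left out of the counts of genes. Scripts were tested on simulated counts. Alternatives were DESeq2 1.42.0, other filters and scalings, thinning, a trend on length and GC content, and each library left out. Genes and lists were chosen with earlier results of these data known. Named were Banp, the genes overlapping it, the BEN domain genes, the 5 most alike by each measure, and per organ at most 3 genes of each other list and 5 with CTCGCGAG, by lowest unadjusted p. Capn3 was named after its values were seen. A few genes that this rule names are not reported here.

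No pair of libraries in a group agreed within sampling noise (chi-square statistics of 4.98 to 208 per degree of freedom). Lengths and locus came from GENCODE annotation of GRCm38, matched by Ensembl ID for 34465 genes. Poly(A) selection leaves out RNA without a tail, and Salmon spreads reads shared by transcripts by estimate.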

Additional observations from a re-analysis of the deposited data

Results flagged for a closer look

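For Banp itself no library of the 5 groups of 4 was far from its group: the gap of the outermost library over the range of the group was 0.37 to 0.57, below the critical 0.829. The 2 Tol cerebellum libraries, at 21.5 and 10.3 CPM, are too few for this measure. The total count stood apart in 3 libraries. It was 34776973 in thymus Tol 1, 29145285 in thymus WT 4 and 14543698 in cerebrum Tol 4, each far from the other 3 of its group. Chance puts about 1 group in 20 past this limit. Thinned to the smallest total, the log2 fold change of Banp was -1.09 in thymus and 0.01 in cerebrum.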

How the results depend on the processing

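In thymus the log2 fold change of Banp was -1.14 to -1.02 under 9 other settings and -1.28 to -1.04 with 1 library left out. In cerebrum it was near 0 throughout and changed sign without the filter on low counts (-0.0075), and ran from -0.090 to 0.081 with 1 library left out. In cerebellum it was -0.93 to -0.76 under other settings and -1.47 to -0.46 with 1 library left out, with edgeR adjusted p values from 0.0875 to 0.9999. WT cerebellum against WT cerebrum gave 0.33 to 0.40 under other settings and 0.24 to 0.42 with 1 library left out, where it passed the threshold without cerebellum WT 2. The cerebellum effect minus the cerebrum effect was -0.92 to -0.79 under other settings and -1.46 to -0.43 with 1 library left out. It passed under no setting that kept both Tol cerebellum libraries. WT thymus was above WT cerebrum by 1.02 and above WT cerebellum by 0.68 on the log2 scale, and by 1.78 and 1.37 with the trend on length and GC content removed. Scaled to library totals alone, Banp was at 53.4 CPM in WT thymus and 19.7 CPM in Tol cerebrum. Of the genes with a CTCGCGAG window, 24 of 208 (11.5%) were called in thymus with DESeq2, beside 9.68% of all genes. Without the filter 2 of 237 (0.844%, Zfand4 and Micu2) were called, beside 0.484% of all genes. With 1 library left out the number was 0 to 54, with 54 of 217 (24.9%) without Tol 1, beside 18.2% of all genes. Of the 596 genes with the shorter core TCGCGA, 1 (0.168%, Capn3) was called, beside 0.0985% of all genes. In cerebrum 2 of the 217 genes with a CTCGCGAG window (0.922%) were called with DESeq2, beside 1.26% of all genes. With 1 library left out the number was 0 to 1, with 1 of 220 (0.455%) without WT 3, beside 0.0441% of all genes. The median log2 fold change in cerebrum was 0.0056 without the filter, -0.00093 with the trend removed and -0.0031 with the shorter core. With 1 library left out it was 0.0055 to 0.019. In cerebellum the median changed sign, within 0.02 of 0, under several settings, and 0 were called under each. Of the 5 genes most like Banp by either measure, 2 to 5 kept their place among the 5 highest under the alternatives. The cause of these changes was not tested. Same-numbered libraries of the compared groups did not deviate together (correlations from -0.29 to 0.64, not all over 0.1 in any comparison of 3 or more pairs), so numbers were not taken as pairs. With a replicate block the Banp difference was -1.14 in thymus, 0.01 in cerebrum, -0.76 in cerebellum (edgeR adjusted p = 0.9999) and 0.35 for WT cerebellum against WT cerebrum, and the block changed no call for it. Of all thymus genes, 16 were called, 5 with the block, 1267 with DESeq2 and 0 to 2978 with 1 library left out (2978 without Tol 1). Counts of 252 to 1547 per library limit the precision, and 2 Tol libraries limit the cerebellum.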
